A study of Tupaia belangeri chinensis with 12 samples.

Results

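The cortical plate (CP), where newborn neurons settle under the brain surface, was compared with the outer subventricular zone (OSVZ), a germinal layer deeper in the cortical wall, in fetal cortex from Chinese tree shrews (Tupaia belangeri chinensis). The comparison takes the 3 CP and the 3 OSVZ libraries, chosen by the layer in their titles, which are 6 of the 12 libraries of the study. The other libraries are 3 of the inner subventricular zone (ISVZ) and 3 of the ventricular zone (VZ). They serve as neighbours, and they enter the scaling, the filter on low genes and the estimate of the spread. Both layers were labelled embryonic day 37, while the deposited tables carry 35 in their names, and the labels name no mutation, transgene or treatment for any library. Each layer was cut by laser from Nissl-stained frozen sections and sequenced as poly(A) RNA, so a library holds every cell type of its layer. The labels do not tie libraries to animals, and the p-values measure only how these samples spread, which can be technical.

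Radial glia of the VZ and outer radial glia of the OSVZ are the stem cells of the cortex, and they give rise to intermediate progenitors that divide into neurons. Newborn neurons leave the germinal layers, climb along radial fibres, stop in the CP and there grow dendrites, axons and their first synapses. The OSVZ is wide in primates and other animals with a folded cortex, and it holds both dividing cells and young neurons passing through.

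Levels are FPKM, fragments counted per length of transcript and per size of library, that were further scaled by 1 factor per library, and differences are log2 of scaled FPKM plus 1, CP minus OSVZ, ± SE of the limma model. A gene was called at a Benjamini-Hochberg adjusted p under 0.05 over all 14101 genes tested, those with at least 1 scaled FPKM in at least 3 of the 12 libraries. Of these, 4371 (31.0%) were called. There were 1925 genes higher in CP (13.7%) and 2446 lower in CP (17.3%), and 474 and 762 of them differed by at least 2-fold. Which direction had more calls depended on the scaling: 1983 were higher and 1969 lower after quantile normalisation, and 1552 higher and 2550 lower with FPKM as deposited. Of the genes higher in CP, 55 reached the filter only in the 3 CP libraries, so that they were tested through the layer where they are high, NTF3, SEMA3D and CADM2-AS-2 among those described here. The median difference over all genes tested was -0.039. Of the 2446 genes lower in CP, 1514 had their highest mean in VZ, 506 in ISVZ and 426 in OSVZ. Of the 1925 genes higher in CP, 1854 had their highest mean in CP. Over all 14101 genes tested, the highest mean was in CP for 4940, OSVZ for 2031, ISVZ for 2325 and VZ for 4805. The split is partly set by the selection, since a gene called lower in CP is not highest there, and a gene called higher in CP is not highest in OSVZ. Without OSVZ replicate 1, 1276 genes were higher in CP and 1824 lower. A fit of the CP and OSVZ libraries alone tested 12902 genes and called 3405, of which 3262 were among the 4371. Where the median of a gene list described here moved by over 1.5 times when 1 CP or OSVZ library was left out, its lowest and highest values over those fits follow it. Counts of list members are to be read against the 13.7% higher and 17.3% lower of all genes, also where these are not repeated.

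**Figure D1:**
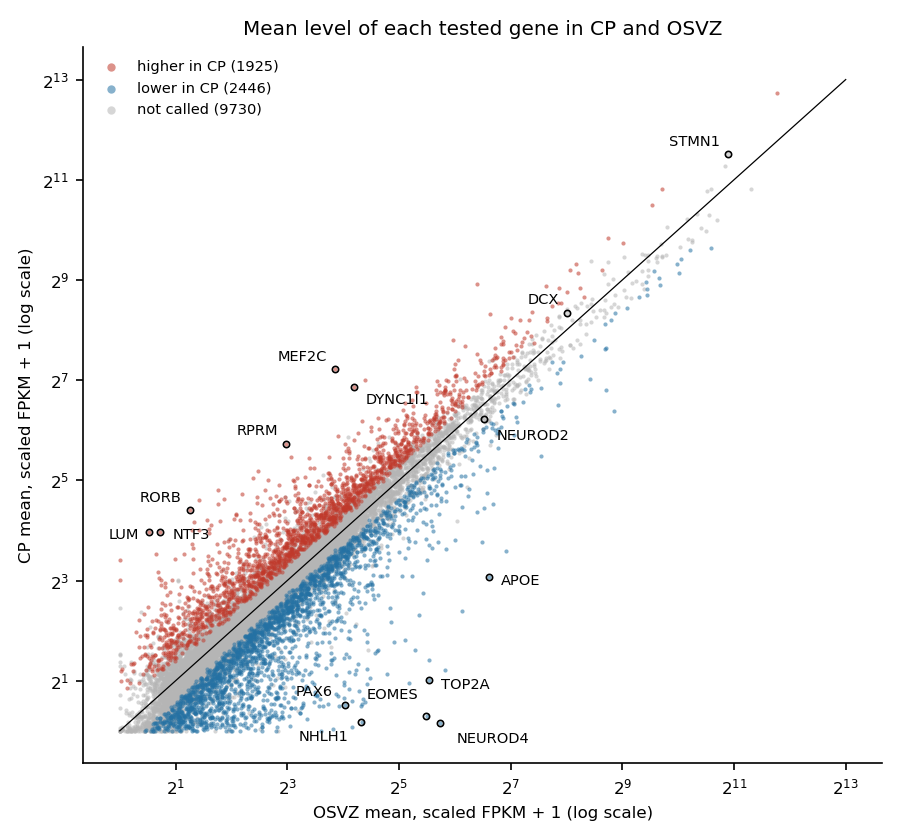
Mean scaled FPKM plus 1 of each of the 14101 genes tested in CP (vertical, log scale) against OSVZ (horizontal, log scale), with red for the 1925 genes called higher in CP, blue for the 2446 called lower and grey for the 9730 not called; the line marks equal levels. Far below the line, NEUROD4 and EOMES were near 0 in CP, while APOE was detected in both layers. Far above it, MEF2C and RORB were detected in both layers, while LUM and NTF3 were under 1 scaled FPKM in every OSVZ library.

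The layer labels were checked against marker genes. Among markers of settled projection neurons, MEF2C, SYT1, SNAP25, MAPT and NEFM were higher in CP, and BCL11B was not called. Newborn neurons are in both layers, and none of their markers DCX, NEUROD1, NEUROD2 and NEUROD6 was called. Markers of intermediate progenitors (EOMES, NEUROD4), radial glia (PAX6, SOX2, VIM, HES1) and dividing cells (MKI67, TOP2A, CDK1) were all lower in CP. SNAP25 was not called without CP 3 (adjusted p = 0.054), OSVZ 1 (0.0636) or OSVZ 2 (0.0555), and NEFM not without CP 1 (0.0582), CP 3 (0.0682) or OSVZ 2, where its difference was 0.63 (0.0533) against 1.00 with all libraries. The intermediate progenitor gene PPP1R17 was at most 1.5 scaled FPKM in the 6 libraries, NEUROG2 was not found by symbol, and HOPX, which marks outer radial glia in human, was at most 1.13. FABP7 of radial glia and the tubulin gene TUBA1A were listed at 0 in all 6 libraries, so the tables cannot show them.

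Pearson r across genes was 0.966 to 0.972 within CP and 0.887 to 0.916 between the layers. Within OSVZ it was 0.974 between OSVZ 1 and OSVZ 2, and 0.947 and 0.955 for the pairs with OSVZ 3. With the ISVZ libraries, r was 0.941 to 0.973 for OSVZ 1 and OSVZ 2, and 0.92 to 0.933 for OSVZ 3. These correlations are across genes, which are not independent replicates. OSVZ 3 stood apart from the other OSVZ libraries. It had 677 genes at over 2-fold the level of both others, against 164 such genes in OSVZ 1 and 114 in OSVZ 2, and it was the deepest library, with a relative depth, read from the width of the deposited confidence bounds, of 1.6 against 0.892 to 1.08 in the other 5. Several of its high genes mark maturing neurons or neurons of the basal forebrain. SCG2, a granin of secretory vesicles, was at 27.7, 19.4 and 15.3 scaled FPKM in CP 1 to 3, against 5.34, 4.09 and 91.4 in OSVZ 1 to 3. Its difference was 0.56 ± 0.82 (adjusted p = 0.642), and 1.90 without OSVZ 3 (adjusted p = 0.000172). SST, the somatostatin gene of interneurons, was at 27.2, 44.0 and 13.3 in CP and at 18.6, 48.4 and 152 in OSVZ, and SIX3, a basal forebrain factor, was at most 0.0598 in CP and at 0.116, 0.0453 and 14.0 in OSVZ. Counts without OSVZ 3 are given beside some of the lists below, not all. The part of the genes high in OSVZ 3 in other results was not tested.

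The largest differences were genes nearly absent from CP. NEUROD4, a proneural factor of intermediate progenitors (TSDBGID.24170, chromosome 7, 45926167 to 45935015 in the deposited tables, whose genome build is not given in the sources used here), was at 0.0205, 0 and 0.338 scaled FPKM in CP against 76.0, 44.6 and 36.0 in OSVZ. EOMES, the T-box factor that defines these cells (TSDBGID.18855, chromosome 29, 15848103 to 15861221), was at 0.185, 0.139 and 0.370 in CP against 55.1, 38.2 and 38.9 in OSVZ. Every OSVZ library was far above every CP library for both. The log2 differences were -5.51 ± 0.38 for NEUROD4 (adjusted p = 4.7e-06) and -5.18 ± 0.28 for EOMES (adjusted p = 1.23e-06).

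TOP2A, the topoisomerase of dividing cells, followed at -4.53 ± 0.27, with 1.73, 0.570 and 0.741 scaled FPKM in CP against 60.2, 41.6 and 34.3 in OSVZ (adjusted p = 1.87e-06). NHLH1, a helix-loop-helix factor of cells that have just become neurons, was at 0.0349, 0.132 and 0.216 in CP against 19.0, 15.4 and 22.7 in OSVZ, a difference of -4.14 ± 0.32. Its level was thus as low in CP as that of the progenitor genes. KIF22, a kinesin of the mitotic spindle, was listed at 0 or under 0.001 in all CP libraries and at 13.4, 9.59 and 10.5 in OSVZ. The remaining 10 of the 15 largest decreases, copies and non-coding entries aside, were the division genes CDCA3, CCNB2, AURKB, MKI67, CKS2 and PCLAF, the proneural factor NEUROG1, the glial genes S100B and APOE, and DIRAS3, a RAS-related GTPase, with differences of -3.57 to -4.24. DIRAS3 and APOE were uneven within OSVZ, at 11.2, 23.3 and 102 for DIRAS3 and 35.5, 91.8 and 162 for APOE, against 2.24, 1.56 and 1.21 for DIRAS3 and 4.31, 16.1 and 1.79 for APOE in CP. Differences of genes near 0 depend on the pseudocount: with 0.1 in place of 1, those of NHLH1, KIF22, NEUROG1 and S100B were -6.46, -6.80, -6.71 and -6.70.

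The largest increase was that of MEF2C, a MADS-box factor of neurons as they mature (TSDBGID.6173, chromosome 11, 86004951 to 86196714). It was at 164, 142 and 138 scaled FPKM in CP against 19.3, 14.7 and 6.5 in OSVZ, a log2 difference of 3.48 ± 0.33 (adjusted p = 2.81e-05). RORB, a nuclear receptor of layer 4 neurons, was at 28.0, 19.4 and 13.3 in CP against 1.38, 1.27 and 1.52 in OSVZ, a difference of 3.09 ± 0.24. For both genes the lowest CP library was more than 7-fold above the highest OSVZ library. LUM, a proteoglycan of connective tissue, was at 12.9, 17.0 and 13.8 in CP against 0.740, 0.518 and 0.0729 in OSVZ (3.45 ± 0.35), and NTF3, the neurotrophin-3 gene, was at 5.35, 16.6 and 21.8 against 0.630, 0.493 and 0.826 (3.05 ± 0.36). NTF3 was tested through its 3 CP libraries alone and fell below the filter without any 1 of them. The other 11 were C1QL3, a secreted synaptic organizer, PPFIBP1, PRSS12, CLMP, the entry U730, NECAB1, RPRM, NWD2, DYNC1I1, CYRIA and CDH12, with differences of 2.60 to 2.94. Of these, RPRM, a gene of deep-layer neurons in mouse, was at 48.2, 24.6 and 83.6 in CP against 5.9, 3.49 and 11.3 in OSVZ, and PRSS12 was uneven within CP, at 43.7, 29.8 and 7.30.

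**Figure D2:**
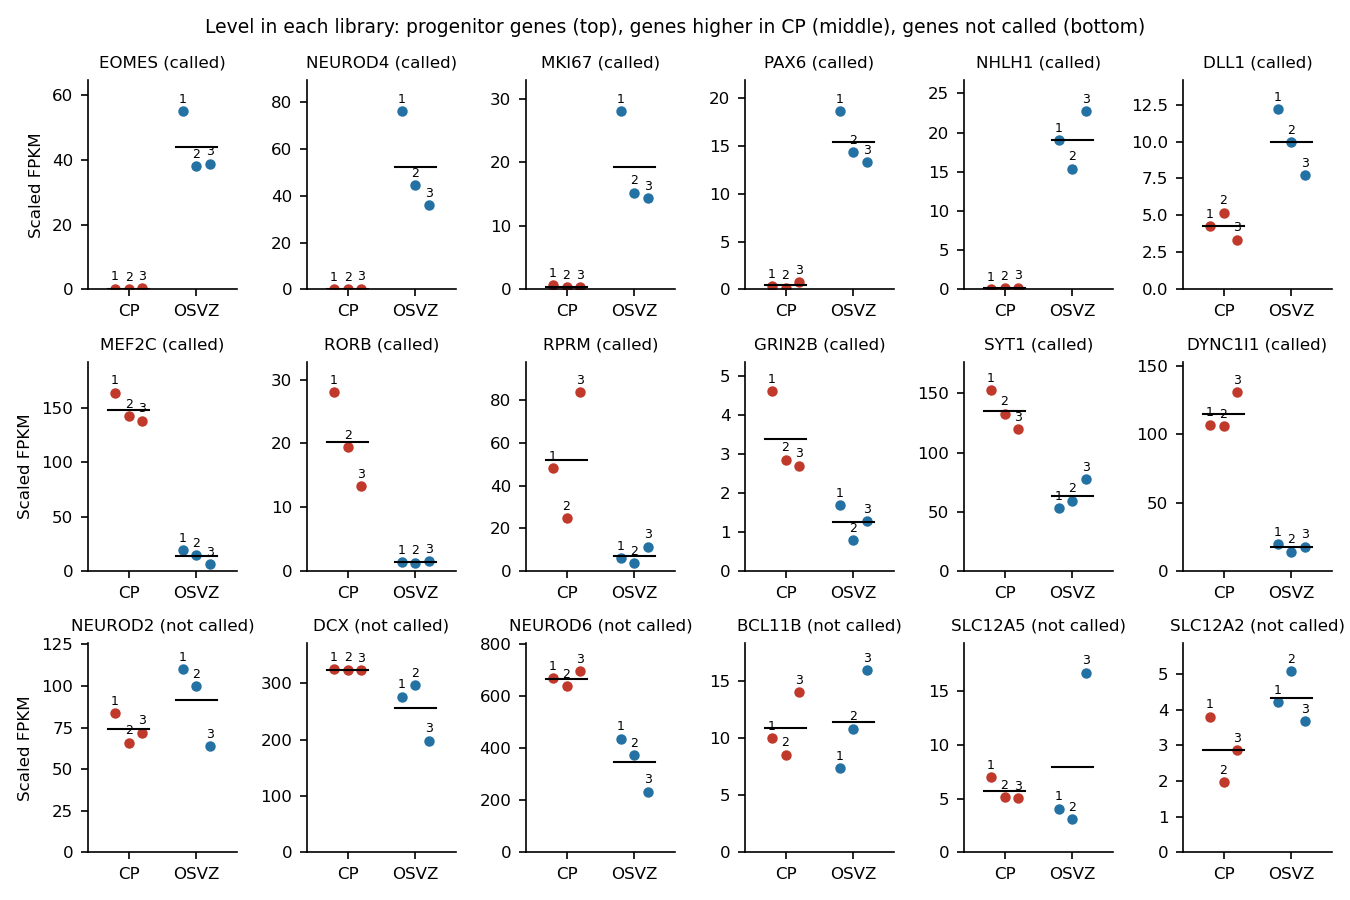
Scaled FPKM (linear axes from 0) of 18 genes in each library, CP left of OSVZ, with the replicate number beside each point and a bar at the mean of 3. The 6 progenitor or proneural genes in the top row were lower in CP with no overlap, the 6 in the middle row were higher in CP with no overlap, and the 6 in the bottom row were not called.

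Most tested genes of intermediate progenitors and radial glia were lower in CP. Of 17 tested genes of intermediate progenitors 12 were lower in CP and 0 higher (70.6% against 17.3% of all genes), with a median of -2.11. Of 18 radial glia genes 15 were lower, with a median of -2.09. PAX6, the homeobox factor of cortical progenitors, was at 0.353, 0.188 and 0.760 scaled FPKM in CP against 18.6, 14.3 and 13.3 in OSVZ, and ID4, an inhibitor of neuronal differentiation, was at 1.92, 3.76 and 1.6 against 24.2, 29.0 and 33.7. The radial glia genes that were not called were CDH2 (0.44 ± 0.21), CLU (-0.041 ± 0.33) and GJA1 (-1.02 ± 0.37, adjusted p = 0.0564). With the replicate number as a block CDH2 and GJA1 were called (adjusted p = 0.0408 and 0.0452), and GJA1 also without OSVZ 1 (-1.34, adjusted p = 0.0268), ISVZ 1 (0.0304) or ISVZ 3 (0.0355). SOX2 and SLC1A3 were still detected in CP, at 6.64, 6.68 and 3.92 for SOX2 and 18.2, 14.2 and 6.53 for SLC1A3. In bulk tissue, fewer cells of a type and less RNA per cell cannot be told apart.

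Genes used as markers of outer radial glia were less uniform. Of 13 tested, 7 were lower in CP and 1 was higher, with a median of -0.59, and 4 were lower when CP 2, OSVZ 1 or OSVZ 2 was left out. When CP 1, CP 3 or OSVZ 3 was left out, 5 were lower. TNC, a matrix glycoprotein, was at 2.07, 2.49 and 1.46 scaled FPKM in CP against 25.2, 25 and 19.8 in OSVZ, a difference of -3.03 ± 0.23 (adjusted p = 7.49e-06). MOXD1 differed by -2.24 ± 0.28 and LIFR, a cytokine receptor, by -0.93 ± 0.16. The co-receptor of LIFR, IL6ST, went the other way, at 11.8, 9.83 and 12.6 in CP against 6.21, 6.88 and 7.80 in OSVZ (0.64 ± 0.13, adjusted p = 0.00317). PTN and SDC3 were not called, at -0.28 ± 0.30 and -0.0099 ± 0.23. HOPX, whose levels are given above, was not called either (-0.59 ± 0.28, adjusted p = 0.141). Its call changed with the pseudocount of 0.1 (adjusted p = 0.0479) and without ISVZ 1 (0.0382).

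Cell division genes fell together. All 13 tested G2/M genes were lower in CP, with a median of -3.07, and 17 of 19 G1/S and replication genes were lower, with a median of -1.61. Of the 20 G2/M genes found, 7 lay below the filter, CCNA2 and CCNB1 among them. Of the 20, 2 were listed at 0 in all CP and OSVZ libraries. PCNA, RRM1 and CDC6 of the G1/S and replication genes also lay below the filter. The summed level of the 20 G2/M genes found was 11.1 to 16.2 scaled FPKM in CP, against 146 to 235 in OSVZ. MKI67, an antigen of cycling cells, was at 0.691, 0.316 and 0.359 in CP against 28.0, 15.2 and 14.3 in OSVZ. Among replication genes, MCM3 of the DNA helicase differed by -3.40 ± 0.23, thymidylate synthase TYMS by -3.03 ± 0.23 and cyclin CCND2 by -3.03 ± 0.22. SLBP, the histone mRNA binder, was the exception, at 25.8, 26.9 and 26.3 in CP against 19.1, 20.2 and 18.2 in OSVZ (0.44 ± 0.095, adjusted p = 0.00544), and it overlaps TACC3 in the annotation. The flap nuclease FEN1 was not called (-0.19 ± 0.15).

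Inhibitors of the cell cycle did not move as 1 group. Of 11 genes of cell cycle exit 4 were lower in CP and 1 was higher, or 2 with the replicate block. CDKN2C, the p18 inhibitor, was at 0.645, 0.464 and 0.722 scaled FPKM in CP against 15.6, 14.4 and 12.2 in OSVZ (-3.22 ± 0.16, adjusted p = 1.11e-06). GAS1, a growth-arrest gene, was at 0.728, 0.996 and 0.981 against 20.1, 21.5 and 19.9 (-3.50 ± 0.30), so both were well below every OSVZ library. CDKN1B, the p27 inhibitor, was lower by a smaller amount (-0.99 ± 0.14), and CDKN1C was not called (-0.28 ± 0.30). CDKN2D, the p19 inhibitor, was the member that was higher in CP, at 31.5, 35.7 and 44.0 against 20.8, 14.1 and 29.1 (0.81 ± 0.23, adjusted p = 0.0221). Its call was lost without CP 2 (adjusted p = 0.0511), CP 3 (0.0745), OSVZ 1 (0.0557) or OSVZ 2 (0.0798).

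Notch signalling keeps neighbouring progenitors from differentiating. Of its 26 genes 18 were lower in CP and 2 were higher (69.2% lower against 17.3% of all genes), with a median of -0.65. Receptor NOTCH1 was at 0.623, 0.280 and 0.234 scaled FPKM in CP against 9.06, 7.24 and 7.09 in OSVZ (-2.68 ± 0.19), the ligand JAG1 at 1.31, 1.14 and 1.18 against 6.99, 6.03 and 5.58 (-1.70 ± 0.19), and the target HES1 at 0.742, 0.705 and 0.522 against 4.47, 6.05 and 5.95 (-1.96 ± 0.27). MFNG, a fringe enzyme that modifies the receptors, had the largest difference, -3.21 ± 0.17. The 2 genes that were higher were DNER, a non-canonical ligand of neurons, at 73.1, 112 and 170 in CP against 40.0, 45.4 and 69.9 in OSVZ (1.13 ± 0.27), and DTX4, a regulator of the receptor, at 15.6, 17.0 and 11.9 against 5.16, 5.86 and 11.7 (0.95 ± 0.24). The ligand DLL3 was not called (-0.59 ± 0.36).

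**Figure D3:**
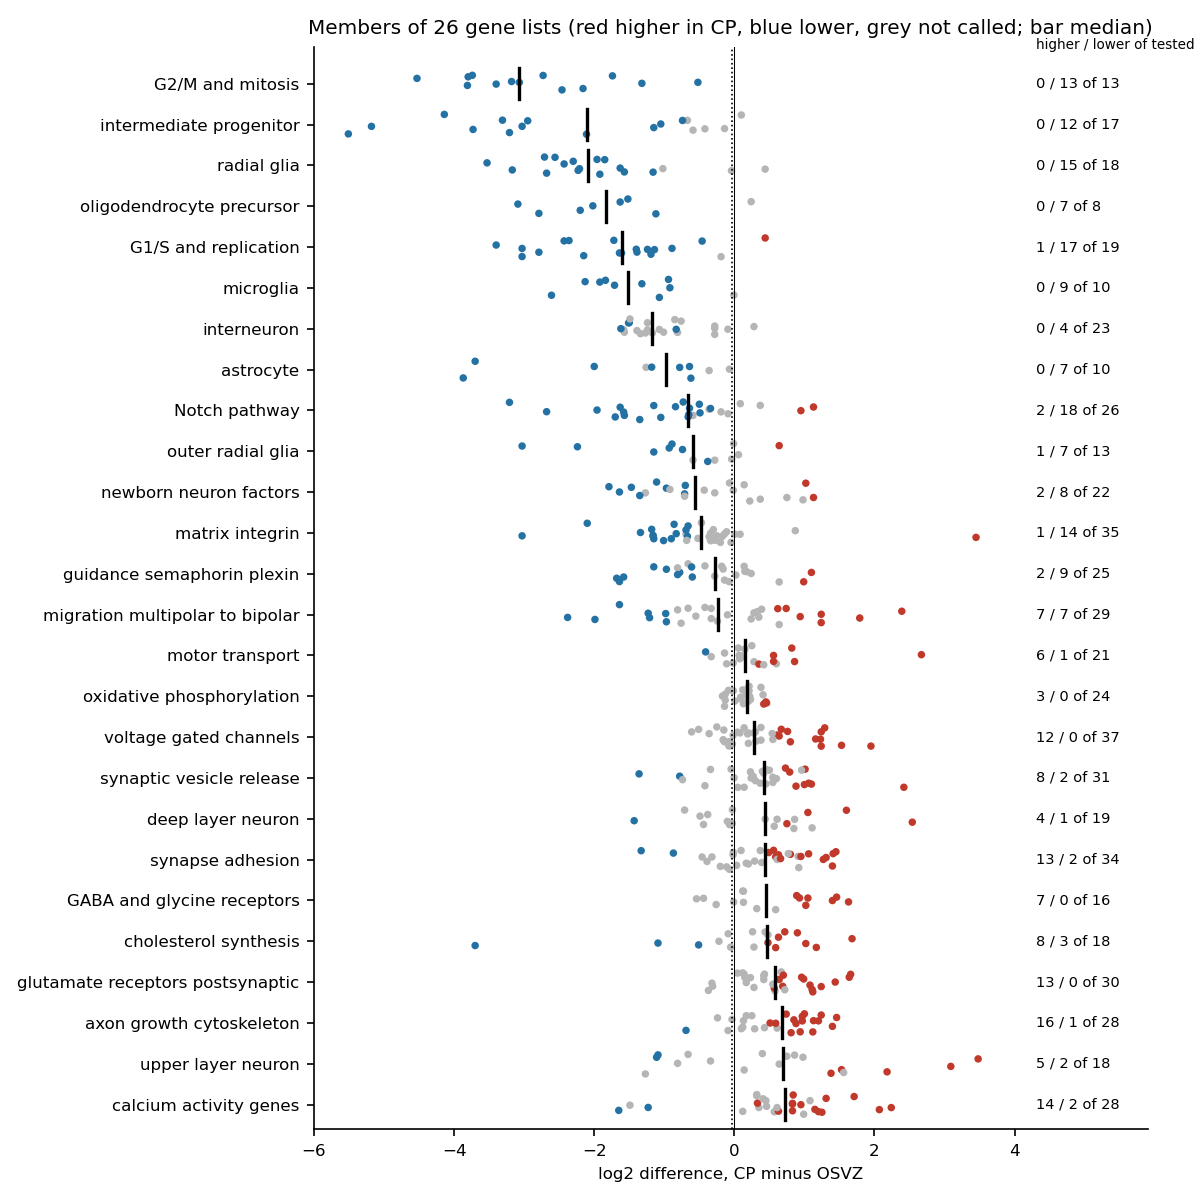
Log2 difference of CP minus OSVZ for every tested member of 26 gene lists, with red for members called higher in CP, blue for members called lower, grey for members not called, a black bar at each list's median and a dotted line at the median of all genes tested (-0.039). The counts at the right are members higher and lower in CP of those tested, from 0 and 13 of 13 for G2/M genes to 14 and 2 of 28 for calcium genes.

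Transcription factors of newborn neurons were on both sides. Of 22 tested, 8 were lower in CP and 2 higher, with a median of -0.56 (-0.65 without CP 1, -0.31 without CP 2). The basic helix-loop-helix factors NEUROD2 and NEUROD6 were abundant in both layers. NEUROD2 was at 83.6, 66.0 and 72.0 scaled FPKM in CP and at 110, 100 and 64.0 in OSVZ (-0.28 ± 0.44, adjusted p = 0.664), with overlapping groups. NEUROD6 was at 666, 636 and 693 in CP and at 435, 373 and 233 in OSVZ, where the groups do not overlap, yet it was not called with the spread estimated over 4 layers (0.98 ± 0.50, adjusted p = 0.164). A fit of the 6 CP and OSVZ libraries alone gave NEUROD6 an adjusted p of 0.028. ZEB2, a zinc finger factor of postmitotic neurons, was higher in CP, at 150, 124 and 135 against 71.4, 76.9 and 42.4 (1.13 ± 0.27, adjusted p = 0.00957). So was ZBTB18, a repressor needed for neuronal maturation, at 338, 335 and 308 against 182, 203 and 112 (1.02 ± 0.28), but not without OSVZ 3 (adjusted p = 0.052). MYT1 (-1.79 ± 0.15), the Snail-family factor SCRT2 (-1.47 ± 0.26), DACH1 (-1.64 ± 0.21) and the POU factor POU3F3 (-1.11 ± 0.20) were lower in CP.

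Migration genes were divided evenly, with 7 of 29 tested higher in CP, 7 lower and a median of -0.24 (-0.32 without OSVZ 2, -0.13 without CP 2). Both shares were 24.1%, against 13.7% higher and 17.3% lower of all genes. The doublecortin gene DCX was at 325, 324 and 323 scaled FPKM in CP and at 276, 296 and 198 in OSVZ, all CP values above all OSVZ values, and was not called (0.35 ± 0.21, adjusted p = 0.22). RND2, a GTPase of the multipolar stage, was at 9.47, 6 and 6.97 in CP against 31.6, 32.8 and 32.0 in OSVZ (-1.99 ± 0.26). UNC5D, a netrin receptor of multipolar cells, was at 3.33, 5.58 and 4.58 against 25.8, 35.1 and 22.1 (-2.38 ± 0.42, adjusted p = 0.00173). Both were thus at least 3-fold lower in every CP library than in any OSVZ library. MAP1B, which stabilises microtubules, was higher at 388, 521 and 504 against 190, 184 and 217 (1.24 ± 0.17), and FLRT2, an adhesion protein that binds UNC5D, was higher at 8.11, 7.81 and 12.3 against 2.34, 1.63 and 1.96 (1.79 ± 0.44).

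Reelin is secreted near the surface, and its intracellular adaptor DAB1 had the largest difference among 11 tested genes of this pathway. Of the 11, 3 were higher in CP and 2 lower, shares of 27.3% and 18.2% against 13.7% and 17.3% of all genes. DAB1 was at 35.1, 38.8 and 56.2 scaled FPKM in CP against 8.36, 8.01 and 5.68 in OSVZ, a log2 difference of 2.39 ± 0.25 (adjusted p = 5.9e-05). The receptors went opposite ways: VLDLR was at 9.26, 5.71 and 7.97 in CP against 5.11, 3.74 and 4.67 in OSVZ (0.64 ± 0.18), and LRP8 at 20.4, 21.8 and 23.4 against 40.9, 39.4 and 30.6 (-0.73 ± 0.20). The adaptor CRKL was lower (-0.73 ± 0.089), its relative CRK higher (0.47 ± 0.10), and the kinase SRC was not called (-0.40 ± 0.18). RELN itself was at 7.15, 9.72 and 3.19 in CP and at 2.90, 3.97 and 27.4 in OSVZ, so its highest level was in OSVZ 3. The 2 receptor calls were lost when single libraries were left out. For VLDLR they were CP 1 (adjusted p = 0.0736), CP 3 (0.0537) and OSVZ 2 (0.0752), and for LRP8 CP 1 (0.0526), OSVZ 1 (0.0626) and OSVZ 2 (0.0572).

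Among 18 genes of upper-layer neurons 5 were higher in CP and 2 lower, with a median of 0.69. Beside MEF2C and RORB, the adhesion gene NECTIN3 was higher, at 13.5, 16.8 and 25.9 scaled FPKM in CP against 3.37, 3.08 and 3.17 in OSVZ (2.18 ± 0.18, adjusted p = 1.07e-05), and so was RASGRF2, an exchange factor of layer 2/3 neurons in mouse, at 3.02, 2.72 and 6.16 against 0.570, 0.395 and 1.04 (1.53 ± 0.24). LHX2, also a gene of progenitors, and POU3F3 were the members that were lower in CP, and LHX2 was at 22.7, 31.4 and 24.4 against 55.6, 60.9 and 52.6 (-1.09 ± 0.29). Its call was lost without CP 1 (adjusted p = 0.0525) or OSVZ 2 (0.0513). With the replicate number as a block, 7 upper-layer genes were higher and 4 lower.

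Of 19 deep-layer genes 4 were higher in CP (21.1%) and 1 was lower (5.26%), with a median of 0.44 (0.07 without OSVZ 1, 0.49 without OSVZ 3). TSHZ3, a zinc finger factor, was at 13.3, 7.45 and 11.1 scaled FPKM in CP against 3.39, 3.05 and 1.94 in OSVZ (1.6 ± 0.20). OTX1 was lower, at 3.52, 0.535 and 2.50 against 7.26, 6.26 and 6.82 (-1.43 ± 0.35). BCL11B, the factor of corticospinal neurons, did not separate the layers, at 9.96, 8.55 and 14.0 in CP and 7.34, 10.8 and 15.9 in OSVZ (-0.027 ± 0.31, adjusted p = 0.958, and 0.23 without OSVZ 3). When CP 3 or OSVZ 2 was left out, 2 deep-layer genes were higher, and without CP 3 or with the replicate block 2 were lower. Subplate genes had 2 lower and 0 higher of 11 (18.2% against 17.3% of all genes), with 1 higher without CP 2 or CP 3, and the secreted NXPH4 was at 2.57, 0.432 and 0.709 in CP against 4.75, 4 and 4.68 in OSVZ.

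Genes of the axonal and dendritic cytoskeleton were higher in CP in 16 of 28 cases (57.1% against 13.7% of all genes), with a median of 0.67. The microtubule protein tau, MAPT, was at 262, 269 and 264 scaled FPKM in CP against 107, 85.7 and 164 in OSVZ (1.20 ± 0.22, adjusted p = 0.00244), and the intermediate filament gene INA at 165, 167 and 173 against 46.5, 44.3 and 107 (1.46 ± 0.31). OSVZ 3 was the OSVZ library nearest to CP for both. GAP43, a growth cone protein, was at 279, 341 and 283 in CP against 80.5, 79.7 and 223 in OSVZ (1.40 ± 0.39, adjusted p = 0.0194). Its call was lost without CP 2 (adjusted p = 0.0625), OSVZ 1 (0.0778) or OSVZ 2 (0.0758). STMN1, which destabilises microtubules and is among the most abundant genes in both layers, was at 2930, 3530 and 2280 in CP and at 2190, 1990 and 1510 in OSVZ, and was called with the replicate block (adjusted p = 0.028 against 0.0734 without it) and without CP 3 (0.0391). MARCKS was the 1 gene that was lower, at 106, 158 and 159 against 197, 217 and 264 (-0.69 ± 0.20), and not without CP 1 (adjusted p = 0.0841), OSVZ 2 (0.0506) or OSVZ 3 (0.0701).

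Motor and transport genes showed 1 large change among mostly small ones. Of 21 tested, 6 were higher (28.6%) and 1 lower (4.76%), with a median of 0.15 (0.08 without OSVZ 2, 0.24 without CP 2). DYNC1I1, the intermediate chain of cytoplasmic dynein that neurons express, was at 107, 106 and 131 scaled FPKM in CP against 19.7, 14.0 and 17.8 in OSVZ, a difference of 2.67 ± 0.20 (adjusted p = 6.74e-06). The dynein light intermediate chain DYNC1LI1 was at 64.7, 64.8 and 64.0 against 34.7, 32.1 and 38.6 (0.86 ± 0.10), and the kinesin-associated KIFAP3 at 55.3, 59.2 and 66.2 against 27.2, 32.4 and 42.4 (0.82 ± 0.17). DCTN2 of dynactin and the kinesin KIF1B were not called, at 0.097 ± 0.13 and 0.15 ± 0.12. KIF21A was the member called lower (-0.41 ± 0.12), and its call was lost without CP 1, CP 2, OSVZ 1 or OSVZ 2 (adjusted p = 0.0819, 0.0969, 0.0546 and 0.0756).

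Of 31 genes of synaptic vesicles and transmitter release 8 were higher in CP (25.8%) and 2 lower (6.45%). Their median was 0.42 (0.26 without OSVZ 2, 0.59 without OSVZ 3). SYT1, the calcium sensor of fast release, was at 153, 133 and 120 scaled FPKM in CP against 52.8, 59.4 and 77.3 in OSVZ (1.10 ± 0.21, adjusted p = 0.00297), and the fusion protein STX1A at 36.8, 52.4 and 38.6 against 19.1, 16.3 and 24.2 (1.06 ± 0.22). SNAP25, the other membrane fusion protein, was at 98.4, 95.6 and 134 against 40.6, 46.0 and 80.3 (1.01 ± 0.27). SLC17A6, a vesicular glutamate transporter, was lower at 7.28, 9.30 and 2.92 against 16.4, 18.8 and 15.4 (-1.36 ± 0.43), as was SYPL1, a synaptophysin relative that other tissues also express (-0.78 ± 0.21). The count moved with single libraries: 15 genes were higher without OSVZ 3, 4 without OSVZ 1, 3 without OSVZ 2 and 5 without CP 1 or CP 2. SNAP25 lost its call without CP 3 (adjusted p = 0.054), OSVZ 1 (0.0636) or OSVZ 2 (0.0555), SYPL1 without CP 2 (0.0591), and SLC17A6 without any 1 of CP 1, CP 3, OSVZ 1, OSVZ 2 and OSVZ 3 (0.0534 to 0.123).

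Receptors for glutamate and their postsynaptic partners were higher in CP in 13 of 30 cases and lower in 0, with a median of 0.57 (0.3 without OSVZ 2, 0.81 without OSVZ 3). The metabotropic receptors led: GRM3 was at 35.6, 19.8 and 54.9 scaled FPKM in CP against 10.2, 8.52 and 11.5 in OSVZ (1.66 ± 0.29), GRM7 at 10.1, 7.89 and 10.2 against 1.66, 1.29 and 5.01 (1.64 ± 0.30), and GRM5 at 20.0, 19.2 and 23.1 against 6.46, 4.02 and 12.6 (1.44 ± 0.29). The AMPA receptor subunit GRIA1 and the kainate receptor subunit GRIK2 were not called, at 0.15 ± 0.18 and 0.12 ± 0.22. GRIN2B, the NMDA receptor subunit of young neurons, was at 4.6, 2.85 and 2.70 against 1.69, 0.780 and 1.27 (0.96, adjusted p = 0.00809). The number higher was 18 without OSVZ 3 and 9 without OSVZ 2, and 1 was lower without CP 1.

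Receptors for GABA and glycine had 7 of 16 higher in CP and 0 lower, with a median of 0.46 (0.31 without OSVZ 1, 0.94 without OSVZ 3). GABRA2, a subunit of the immature receptor, had a lower mean in CP and was not called (-0.54 ± 0.23) except without CP 2 (adjusted p = 0.044). Without OSVZ 1, 4 of the 16 were higher, and without OSVZ 3, 9 of 14. The chloride transporters that set the direction of GABA currents were low and were not called. SLC12A5, which exports chloride, was at 7.02, 5.12 and 5.05 in CP and 4.06, 3.07 and 16.7 in OSVZ (-0.10 ± 0.44, and 0.56 without OSVZ 3), and SLC12A2, which imports it, at 3.81, 1.97 and 2.87 and at 4.22, 5.09 and 3.69 (-0.48 ± 0.23). Of the 16 chloride and transmitter transporters, 5 were lower and only SLC1A1, the neuronal glutamate transporter, was higher, at 29.8, 27.0 and 34.9 against 8.94, 10.3 and 12.8 (1.44 ± 0.16, adjusted p = 9.18e-05). Without CP 3 or OSVZ 3, 2 of these transporters were lower, and without OSVZ 2, 3, while 2 were higher without CP 2.

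Voltage-gated channels were higher in CP in 12 of 37 cases and lower in 0, with a median of 0.28 (0.12 without OSVZ 2, 0.36 without OSVZ 3). SCN2A, a sodium channel of axons, was at 34.2, 28.9 and 32.6 scaled FPKM in CP against 5.9, 5.54 and 12.5 in OSVZ (1.95 ± 0.26, adjusted p = 0.000286). The calcium channel CACNA1E was at 7.09, 6.63 and 16.9 against 2.51, 1.19 and 4.90 (1.53 ± 0.36), and the potassium channel KCNMA1 at 25.7, 21.4 and 19.1 against 8.53, 7.63 and 9 (1.29 ± 0.25). The potassium channel KCNQ3 was not called (-0.61 ± 0.34). Without OSVZ 2, the channel count was at its lowest, 8.

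Genes of calcium signalling had 14 of 28 higher in CP and 2 lower, with a median of 0.73. ITPR1, the calcium release channel of the endoplasmic reticulum, was at 6.70, 9.83 and 17.8 scaled FPKM in CP against 1.24, 1.42 and 1.73 in OSVZ (2.24 ± 0.31, adjusted p = 0.00039). The calcium-binding CALB1 was at 13.5, 11.6 and 27.2 against 1.52, 3.06 and 5.82 (2.07 ± 0.37). The calcium sensors hippocalcin, HPCA, at 21.7, 22.1 and 19.4 against 55.6, 80.2 and 69.9 (-1.65 ± 0.42), and HPCAL1 (-1.23 ± 0.27) were the members that were lower in CP. Secreted factors and peptides had 6 of 23 higher (26.1%) and 2 lower (8.7%). The number higher was 9 of 22 without OSVZ 3, 8 with the replicate block and 5 without CP 1, CP 3 or OSVZ 2. Of the 28 genes of this list found, 12 were over 2-fold higher in OSVZ 3 than in both other OSVZ libraries. Among the neurotrophins, BDNF was at 7.51, 4.55 and 4.65 in CP against 0.388, 1.01 and 1.01 in OSVZ (1.85 ± 0.23), while their receptor NGFR was at 0.102, 0.0322 and 0.0396 against 4.69, 1.58 and 3.26 (-1.91 ± 0.30). Of 19 immediate early and stress genes found, 9 lay below the filter, among them EGR1, FOSB, ARC, NPAS4 and NR4A1. Of the 10 tested, 2 were higher (20%), BDNF, already counted among the secreted factors, and the nuclear receptor NR4A3 (1.47 ± 0.36). The 3 that were lower (30%) were the AP-1 factor JUND (-1.03 ± 0.15), the phosphatase DUSP1 (-0.66 ± 0.11) and the heat shock gene HSPB1 (-1.33 ± 0.29).

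Synaptic adhesion genes were higher in CP in 13 of 34 cases and lower in 2, with a median of 0.44. ADGRL2, a latrophilin, was at 43.9, 39.4 and 44.7 scaled FPKM in CP against 13.2, 17.3 and 14.6 in OSVZ (1.45 ± 0.13, adjusted p = 1.82e-05), and CADM2 at 26.1, 14.5 and 18.7 against 5.91, 6.55 and 7.55 (1.40 ± 0.22). The receptor phosphatase PTPRS (-0.87 ± 0.18) and the teneurin TENM4 (-1.33 ± 0.38) were lower, TENM4 not without CP 3 (adjusted p = 0.0753) or OSVZ 1 (0.0818). The count of those higher was 8 without CP 3 and 16 without OSVZ 3. Cadherins had 8 of 28 higher (28.6% against 13.7% of all genes) and 5 lower (17.9%, near the 17.3% of all genes). CDH12 was at 15.8, 13.1 and 16.6 in CP against 1.71, 1.42 and 1.86 in OSVZ (2.60 ± 0.18), PCDH11X at 39.7, 20.2 and 37.4 against 10.3, 4.41 and 12.2 (1.78 ± 0.35), and CDH6 at 11.8, 9.02 and 9.75 against 2.32, 1.45 and 2.19 (1.91 ± 0.23). The members that were lower included large cadherins of epithelial cells and progenitors, CELSR1 (-1.81 ± 0.28) and FAT1 (-1.24 ± 0.18). Without OSVZ 1, 5 cadherins were higher, and without OSVZ 3, 12 of 25 tested.

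Axon guidance genes of the semaphorin, plexin and neuropilin families were lower in CP in 9 of 25 cases (36% against 17.3% of all genes) and higher in 2, with 1 higher without CP 1, CP 2, CP 3 or OSVZ 1. SEMA5A and SEMA5B, transmembrane semaphorins, were at 0.613, 0.656 and 0.901 scaled FPKM and at 0.424, 0.583 and 0.279 in CP, against 3.90, 3.79 and 4.76 and 3.30, 3.78 and 3.54 in OSVZ. The semaphorin receptor NRP1 was at 5.93, 4 and 4.31 in CP against 17.2, 18.4 and 14.8 in OSVZ (-1.64 ± 0.31), and it overlaps its antisense gene NRP1-AS-2. SEMA3D was higher, at 2.14, 1.32 and 4.12 against 0.753, 0.420 and 0.889 (0.99 ± 0.25), and it was below the filter, and so not tested, without any 1 CP library. SEMA7A was higher too (1.10 ± 0.29), though not called without OSVZ 1 (adjusted p = 0.0559). Of 29 ephrin, netrin and slit genes 4 were higher and 6 lower, shares of 13.8% and 20.7% that lie near the 13.7% and 17.3% of all genes. The repellent SLIT2 was at 0.442, 1.26 and 1.85 in CP against 4.80, 7.12 and 4.90 in OSVZ (-1.64 ± 0.37), and EFNB1 differed by -1.10 ± 0.16. The number higher was 0 without OSVZ 2, 1 without CP 1 or OSVZ 1 and 2 without CP 2, and it was 7 with the replicate block.

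Among 35 matrix and integrin genes, 14 were lower in CP and 1, LUM, was higher (2 without CP 2), with a median of -0.47. Beside TNC, the proteoglycan BCAN was at 2.23, 2.29 and 1.25 scaled FPKM in CP against 5.78, 11.8 and 20.7 in OSVZ (-2.10 ± 0.35), and the integrin ITGB8 at 0.927, 1.31 and 1.57 against 4.52, 5.84 and 3.88 (-1.34 ± 0.17). SPARCL1, a matrix protein of glia, was not called (-0.36 ± 0.42). LUM is also a marker of meningeal fibroblasts. The summed level of 13 meningeal genes was 19.6 to 30.6 in CP against 5.23 to 10.2 in OSVZ, of which LUM alone makes up 12.9 to 17.0 in CP. The other meningeal markers DCN, COL1A1 and FOXD1 were at most 0.696 in the 6 libraries, and COL3A1 was not called (-0.047 ± 0.43). Of 7 meningeal genes tested 1 was higher and 1 lower, and 0 were lower without any 1 of CP 1, CP 3, OSVZ 1, OSVZ 2 and OSVZ 3. Whether meningeal cells contributed to the LUM level was not tested.

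Subunits of the BAF chromatin remodeller change when progenitors become neurons. DPF1, a subunit of the neuronal form, was at 56.9, 54.7 and 46.3 scaled FPKM in CP against 22.3, 21.0 and 32.3 in OSVZ (1.05 ± 0.17, adjusted p = 0.00119), and ACTL6B, another, at 39.0, 39.4 and 41.1 against 27.7, 25.1 and 32.3 (0.48 ± 0.14). The call of ACTL6B was lost without any 1 of 5 libraries, with adjusted p of 0.0524 without CP 1 to 0.0918 without OSVZ 2, whereas DPF1 was called in each of these fits. The core subunit SMARCC1 was at 3.82, 2.79 and 5.03 in CP against 12.7, 10.8 and 9.65 in OSVZ (-1.33 ± 0.17), with an overlap with CSPG5. SMARCA2, an ATPase of the complex, was at 38.8, 73.5 and 112 against 22.9, 22.4 and 25.7 (1.5 ± 0.29). The other ATPase, SMARCA4, was at 36.7, 28.8 and 33.3 in CP and 45.4, 37.5 and 44.1 in OSVZ, and was called lower with the replicate block (adjusted p = 0.015 against 0.065 without it) and without ISVZ 1 (0.0353). Of 6 tested subunits listed for the neuronal form 2 were higher and 0 lower. Of 4 listed for the progenitor form 1 was higher, the ATPase SMARCA2, and 1 lower, SMARCC1. ACTL6A and DPF2 of that form lay below the filter, and PHF10 was not found by symbol. BCL7A, SS18L1, SMARCC2 and BCL11A were not called (-0.25 to -0.015), and SS18 (-0.46 ± 0.18) was called without CP 1 (-0.66, adjusted p = 0.0139) or OSVZ 3 (0.0275).

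RNA-binding proteins of progenitors had 4 of 9 lower in CP and 0 higher. PTBP1, a repressor of neuronal splicing, was at 6.31, 6.31 and 8.02 scaled FPKM in CP against 23.3, 18.6 and 22.9 in OSVZ (-1.52 ± 0.18), and it overlaps PLPPR3. MSI1 (-1.33 ± 0.15), MSI2 (-1.19 ± 0.12) and QKI (-1.39 ± 0.17) were lower as well. PTBP2, the neuronal relative of PTBP1, was not called, at 63.5, 60.8 and 66.7 in CP and 55.6, 69.1 and 49.1 in OSVZ. Neuronal RNA-binding proteins had 2 of 21 higher and 3 lower (1 without CP 2), with a median of -0.029 (-0.09 without CP 1, 0.06 without CP 2). Their shares, 9.52% higher and 14.3% lower, were under the 13.7% and 17.3% of all genes. The STAR-family proteins KHDRBS2 (1.34 ± 0.32) and KHDRBS3 (0.78 ± 0.16) were the 2 that were higher, and RBFOX2 was level at 101, 101 and 102 in CP and 105, 96.3 and 92.3 in OSVZ.

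Of 18 genes of cholesterol synthesis and handling 8 were higher in CP (44.4% against 13.7% of all genes) and 3 lower, with a median of 0.46. HMGCS1, an enzyme of this pathway, was at 329, 378 and 251 scaled FPKM in CP against 102, 91.9 and 98.2 in OSVZ (1.68 ± 0.15, adjusted p = 2.05e-05). No CP value came near any OSVZ value. The carriers APOE and ABCA1 (-1.09 ± 0.14) and the enzyme MVK (-0.51 ± 0.14) were lower, MVK not without CP 1 (adjusted p = 0.0614), CP 3 (0.0594) or OSVZ 3 (0.0548). SREBF2, the factor that drives the pathway, was not called (-0.22 ± 0.13). Without CP 2 or OSVZ 1, 5 genes were higher. The pathway genes IDI1, FDPS, FDFT1 and MSMO1 lay below the filter. Glycolysis had 4 of 19 tested genes higher (21.1%) and 1 lower (5.26%), and LDHA was at 139, 146 and 120 against 102, 86.5 and 88.0 (0.54 ± 0.13). However, 2 were higher without CP 1, CP 2 or OSVZ 2 and 7 without OSVZ 3, and 3 were lower without CP 3 or with the replicate block. TPI1, GAPDH, PGAM1, ENO1, PKM and LDHB lay below the filter, and 4 of the 25 glycolysis genes found were listed at 0 in all CP and OSVZ libraries. For oxidative phosphorylation 3 of 24 were higher and 0 lower (12.5% against 13.7% of all genes). Without CP 1 or OSVZ 1, 0 were higher, 1 without CP 2, OSVZ 2 or OSVZ 3, and 5 with the replicate block. Of its 37 genes found, 13 lay below the filter and 7 were listed at 0 in all CP and OSVZ libraries, so the tables show these pathways only in part.

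Among markers of other cell types, those of microglia and oligodendrocyte precursors had the highest shares of genes lower in CP. Oligodendrocyte precursors had 7 of 8 tested genes lower, with a summed level over 10 genes of 6.04 to 15.9 scaled FPKM in CP against 56.1 to 82.8 in OSVZ. OLIG1, a factor of this lineage, was at 6.32, 2.01 and 2.23 in CP against 21.9, 30.6 and 31.6 in OSVZ (-2.79 ± 0.38), and the receptor PDGFRA at 2.56, 0.625 and 0.511 against 5.91, 7.27 and 9.09 (-2.02 ± 0.31). CP 1 was the highest of the CP libraries for both. Microglia had 9 of 10 genes lower, with a summed level over 14 genes of 8.07 to 9.07 in CP against 36.4 to 39.4 in OSVZ. The complement gene C1QB was at 0.341, 0.307 and 0.454 against 6.30, 7.84 and 8.01 (-2.61 ± 0.20, adjusted p = 7.3e-06), and the receptor CSF1R at 0.298, 0.241 and 0.106 against 4.43, 4.57 and 3.88 (-2.13 ± 0.28). Both lists kept these counts in each fit that left out 1 CP or OSVZ library.

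**Figure D4:**
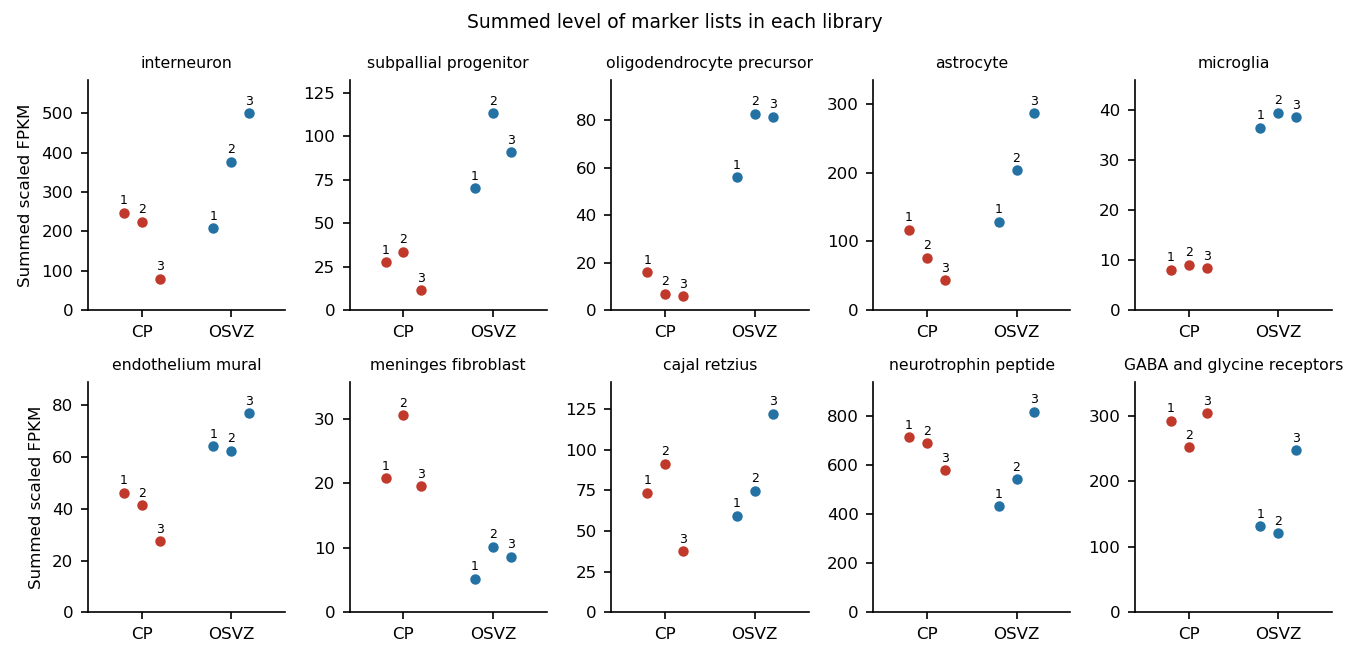
Summed scaled FPKM of 10 marker lists in each library (linear axes from 0), CP left of OSVZ, with the replicate number beside each point. Oligodendrocyte precursor and microglia genes were lower in every CP library than in any OSVZ library, meningeal genes higher, and OSVZ 3 was the highest OSVZ library for interneuron, astrocyte and peptide genes.

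Interneurons reach the cortex from the basal forebrain, and 4 of their 23 genes were lower in CP and 0 higher, with a median of -1.17 (-1.43 without OSVZ 1, -0.69 without OSVZ 3). The share lower, 17.4%, is that of all genes (17.3%), and 8 were lower with the replicate block. The summed level was 80.4 in CP 3, 225 in CP 2 and 248 in CP 1, against 209, 377 and 501 in OSVZ 1 to 3. SP8, a zinc finger factor of interneurons, was at 0.514, 0.480 and 0.110 scaled FPKM in CP against 2.96, 3.48 and 2.18 in OSVZ (-1.50 ± 0.37). DLX2 was at 6.79, 6.16 and 3.12 against 12.6, 23.0 and 15.3 (-1.51 ± 0.44), not without CP 3 (adjusted p = 0.0844) or OSVZ 2 (0.0854), and its neighbour DLX1 overlaps it. DLX1 was called with the block (adjusted p = 0.0421 against 0.0735 without it) and without ISVZ 1 (0.02). Progenitor genes of the basal forebrain had 4 of 7 lower, GSX2 among them at 0.333, 0.0699 and 0.23 against 2.32, 3.85 and 3.03 (-1.74 ± 0.31). Without OSVZ 2, 2 of the 23 interneuron genes were lower, and without CP 3, 2 were lower and 1 higher.

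Astrocyte genes had 7 of 10 lower in CP, and 4 without CP 2, CP 3 or OSVZ 3. Their summed level was 43.2 to 117 scaled FPKM in CP against 129 to 287 in OSVZ. S100B was at 0.157 in CP 2 and under 0.001 in CP 1 and CP 3, against 6.33, 29.1 and 15.2 in OSVZ. Vascular genes had 9 of 15 lower (5 without CP 3), with the endothelial CLDN5 at 5.39, 4.54 and 3.14 against 7.80, 8.35 and 11.2 (-0.93 ± 0.17) and the pericyte gene RGS5 at 9.68, 6.75 and 5.59 against 14.0, 14.7 and 14.4 (-0.91 ± 0.21). By limma, 0 of 5 choroid plexus, 0 of 7 motile cilia and 0 of 3 erythroid genes were called, and 0, 0 and 2 had an unadjusted p under 0.05. Of the erythroid genes 1 was lower without CP 1 or OSVZ 3 or with the replicate block. No mitochondrial transcript was found by symbol. Of 5 Cajal-Retzius genes 1 was higher, PRDM8 (0.85 ± 0.22), and not without CP 2 (adjusted p = 0.055) or OSVZ 2 (0.0532), and 1 was lower without CP 2. What part these cell types have in the differences of other genes was not tested.

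The OSVZ to CP step was set against the step before it, ISVZ to OSVZ, by testing the difference of the 2 steps in the same model, which share the OSVZ libraries. A positive value means that CP minus OSVZ exceeded OSVZ minus ISVZ. The step difference was called for 261 genes (1.85%), of which 56 were positive and 205 negative, and for 408 with the replicate block. EOMES had means of 0.231 scaled FPKM in CP, 44.0 in OSVZ and 54.3 in ISVZ, and a step difference of -4.95 (adjusted p = 0.00224). NEUROD4 (-5.43), NHLH1 (-4.0) and TOP2A (-3.57) also had a larger decrease at the step to CP than at the step before. On the other side, RORB (3.16) and NECTIN3 (2.50) increased more at the step to CP, and RORB had means of 20.2 in CP, 1.39 in OSVZ and 1.54 in ISVZ. The step calls of these 6 genes held in every alternative fit that included ISVZ. The count fell to 103 without OSVZ 1, to 82 without OSVZ 2 and to 158 without ISVZ 2, and it was 428 without ISVZ 1.

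For 43 of the genes lower in CP and called in the step test, the mean was highest in OSVZ of all 4 layers. They were read off these values, not taken from a list. OLIG1 had means of 3.52 scaled FPKM in CP, 28.0 in OSVZ, 7.90 in ISVZ and 4.28 in VZ, and a step difference of -4.6 (adjusted p = 0.00661). SOX10, another factor of oligodendrocyte precursors, had 0.344 in CP, 2.85 in OSVZ, 0.791 in ISVZ and 1.10 in VZ (-2.62). C1QB had 0.367 in CP, 7.38 in OSVZ, 4.84 in ISVZ and 7.07 in VZ (-3.17). The neuronal genes NRP1 and CNTN2, an axonal adhesion protein, were also highest in OSVZ. NRP1 had means of 4.75, 16.8, 8.24 and 3.41 in CP, OSVZ, ISVZ and VZ, and CNTN2 had 5.39, 13.8, 4.6 and 2.06. Their step calls were lost without OSVZ 1 (adjusted p = 0.113 for NRP1 and 0.108 for CNTN2) or OSVZ 2 (0.126 and 0.0814). That of NRP1 was also lost without CP 2, CP 3, OSVZ 3 or ISVZ 2 (0.0523 to 0.0601) and that of CNTN2 without CP 2 (0.0581) or OSVZ 3 (0.0908). The lower level of CNTN2 in CP was itself not called without CP 2 (adjusted p = 0.05). That of OLIG1 was lost only with no filter on low values (0.0525), and those of SOX10 and C1QB held in every fit with ISVZ.

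**Figure D5:**
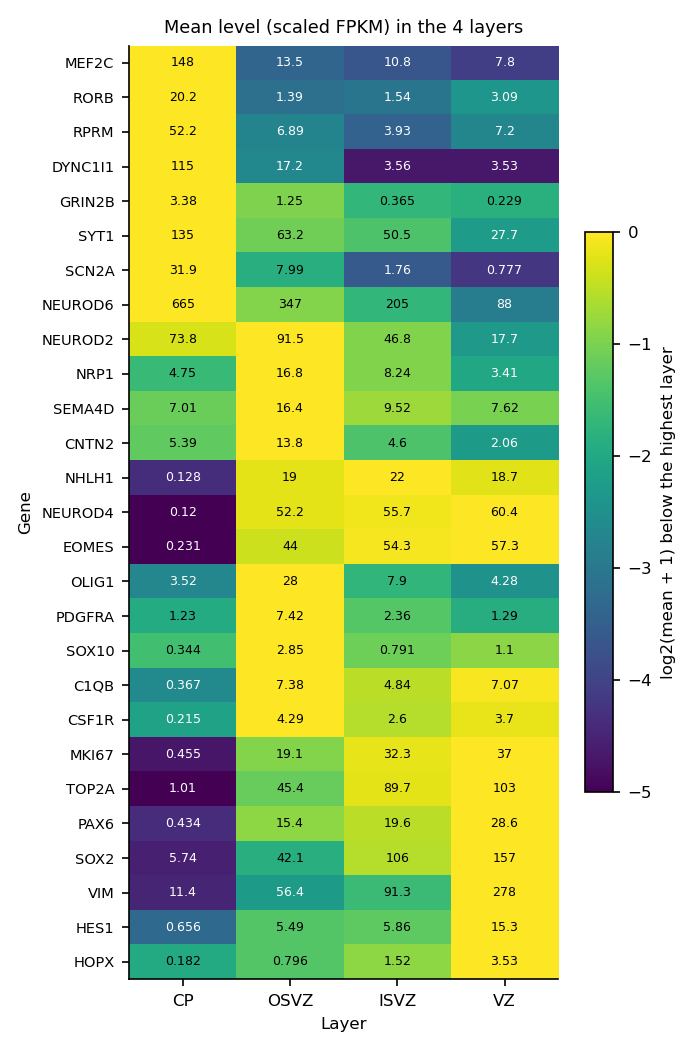
Mean scaled FPKM (printed) of 27 genes in CP, OSVZ, ISVZ and VZ, coloured by log2 of the mean plus 1 relative to the highest layer of each gene. Genes such as MEF2C and RORB were highest in CP, OLIG1, SOX10, NRP1 and CNTN2 in OSVZ, and division and radial glia genes in VZ.

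Many calls rest on features whose reads cannot be assigned with certainty. Of the 2446 genes lower in CP 929, and of the 1925 higher 617, overlap another annotated gene with a level of at least 0.5 of their own. So do 5600 of all 14101 genes tested. Among gene copies, UBE2Cli1 (-4.61 ± 0.26), NUSAP1li3 (-3.71 ± 0.20) and HMGB2li5 (-3.66 ± 0.22) had the largest decreases, while the main entries of these division genes, UBE2C, NUSAP1 and HMGB2, lay below the filter. KLHL4li1 (2.79 ± 0.20), SHISA9li1 (2.23 ± 0.25) and OATli2 (2.04 ± 0.30) were the copies with the largest increases. Among antisense and intergenic entries, LIMCH1-AS-3 was at 6.29, 10.7 and 12.1 scaled FPKM in CP, against 0.00178 in OSVZ 3 and under 0.001 in OSVZ 1 and OSVZ 2, and CADM2-AS-2 was at 7.05, 6.89 and 7.40 in CP and under 0.001 in all OSVZ libraries. CADM2-AS-2 was tested through its 3 CP libraries alone and fell below the filter without any 1 of them. Both overlap their host genes LIMCH1 and CADM2, and reads of an entry and its host cannot be told apart where the use of strand is not given. The intergenic LINC-TAF1D-10 was lower, at 0.118, 0.215 and 0.510 against 7.84, 12.2 and 5.05. Of the genes named above, CDCA3, CDK1, NECAB1, PRSS12, VLDLR, CDH6, CALB1, HPCA, KCNMA1, SLC12A5, POU3F3, TENM4, MARCKS, SYPL1, ACTL6B, ABCA1, CSF1R, CLDN5, RELN, CNTN2 and NUSAP1li3 also overlap another annotated gene with a level of at least 0.5 of their own, and their values are uncertain for this reason. CCNB1IP1, which the study's title names, was at most 0.0984 in CP and 0.0605 in OSVZ, below the filter, and was not tested.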

How the data were processed

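Poly(A) RNA of laser-cut layers was sequenced, and the authors deposited 1 gene table per library with FPKM values, made with HISAT2 and Cufflinks per the submitters' processing notes. Tool versions, build, annotation and strand use were not given in the sources used here. FPKM of the rows of 1 gene ID were summed (360 IDs had more than 1 row), and 4 IDs with a failed status were left out. Each library was scaled by the median ratio over the 10200 genes that reached 1 FPKM in every library. Genes with at least 1 scaled FPKM in at least 3 of 12 libraries were tested (14101) on log2(scaled FPKM + 1) with limma 3.58.1 in R 4.3.3, with 4 layer means, 8 residual degrees of freedom, a trended prior and Benjamini-Hochberg adjustment at 0.05. The log2 scale with a pseudocount understates changes of low genes. No read counts are used, and summed FPKM was 244666 to 268380 in the 6 libraries. Deviations from the layer means had r of 0.342, 0.104 and 0.164 for CP and OSVZ libraries of the same number. For pairs of unlike number r was -0.224 to 0.0505. The replicate number was therefore also fitted as a block.

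The text names the 15 largest called differences each way, 3 copies and 3 non-coding entries each way, up to 4 called and 2 other members of each of 47 gene lists, any called against its list's main direction, and marker checks, of which some are not reported here. Genes named outside this rule (SCG2, SST, SIX3, RELN, SOX10, CNTN2, GRIN2B and other list members) were chosen after their values were seen. The comparison, lists and named genes were chosen with earlier results of these data known. The script was tested on simulated data. Alternatives were other scalings, pseudocounts, filters and fits, and each CP, OSVZ and ISVZ library left out in turn.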

Additional observations from a re-analysis of the deposited data

How the results depend on the processing

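No called difference of the 294 named genes changed sign under any alternative fit, while 33 of the 91 named genes that were not called changed sign in at least 1. Over all genes tested, the replicate block called 5010 in CP minus OSVZ, and 4294 of these were among the 4371. Among the named genes, the block ended no CP minus OSVZ call and added 9. It gave 408 step calls; among the named genes it added 21 to the 56 and ended 3, those of CDH4, DYNC1LI1 and SEMA4D (adjusted p = 0.0517, 0.0517 and 0.0521). With a pseudocount of 0.1 there were 1387 genes at least 2-fold lower in CP and 471 step calls, and with no filter on low values 72 step calls. With no filter, 41 of the 294 named genes lost their call; more genes were then tested. Leaving out 1 library gave 1276 to 2095 genes higher in CP, 1824 to 2487 lower, and 82 to 428 step calls, lowest without OSVZ 1 for the genes higher and lower in CP and without OSVZ 2 for the step calls. Between 1 and 27 named genes lost their call, with the most without OSVZ 2; the cause was not tested. With the 6 libraries alone, 10 of 287 named genes lost their call and 9 gained one. With the block added, 14 lost their call and 13 gained one. NEFM was lost with the 6 libraries alone (adjusted p = 0.0608). MVK (0.0596 and 0.0777) and KIF21A (0.0671 and 0.079) were lost without and with the block. HPCAL1 and DTX4 were lost only with it (0.0503 and 0.0732). Quantile normalisation ended 9 calls of the 294 and the pseudocount of 0.1 ended 4. GRIN2B also lost its call with that pseudocount (0.0528). Total read depth is unknown, since the tables hold no counts.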
